A study of Mus musculus with 16 samples.

Results

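Rab GTPases are small GTPases that direct membrane traffic, and their messenger RNAs were followed here through the mouse small intestine at 2 ages and in 2 regions. The members were all genes whose symbol is Rab, a number and at most 1 letter from a to d, which gave 59 of the 24421 genes in the count tables. Of these, 48 passed the filter on low counts and were among the 13429 genes tested, and 11 did not. All mice were wild type of the strain C57BL6/J, aged postnatal day 6 (P6, before weaning) or day 36 (P36, after weaning), with 4 mice per age, 2 female and 2 male. Each mouse gave 1 jejunum and 1 ileum library, so the groups P6 jejunum, P6 ileum, P36 jejunum and P36 ileum held 4 libraries each, and replicates of 1 group were different mice. At P6, replicates 1 and 3 share the first part of their mouse label, as do replicates 2 and 4. What this part stands for is not given, and no fit used it. The epithelium was lifted off with EDTA and sequenced as bulk RNA.

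A Rab protein is active when it holds GTP and inactive when it holds GDP. Guanine nucleotide exchange factors (GEFs) switch it on, GTPase-activating proteins (GAPs) switch it off, GDP dissociation inhibitors (GDIs) keep the lipid-modified protein soluble, and effectors read the active form. Each Rab sits on its own set of membranes, from the endoplasmic reticulum (ER) and Golgi through early and recycling endosomes to late endosomes, lysosomes and secretory granules. The neonatal small intestine takes up milk proteins by endocytosis through its enterocytes, and those of the ileum hold large lysosomal vacuoles. The comparisons asked how the levels differed between jejunum and ileum at each age and between the ages in each region.

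Library totals ran from 12159237 to 25947276 counts, and between 53 and 59 members had at least 1 count in a library. Levels are given as CPM, counts relative to the library total scaled by TMM factors, which compare 1 gene between libraries, or as TPM, which also divides by exon length and compares genes. The markers of the epithelium were high in every group, with a summed level of 8 genes of at least 4000.1 CPM. In bulk RNA, fewer cells of a type and less RNA per cell cannot be told apart. In the second P6 ileum library, 7 markers of fibroblasts and smooth muscle summed to 363 CPM, against 19.7 to 29.3 as the lowest and the median of that group. The fourth P6 ileum library stood apart for the members themselves.

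In that library, 8 of the 48 tested members lay more than 1 log2 unit below the mean of the other 3 P6 ileum libraries and 2 lay more than 1 above it. Rab1b, which acts between ER and Golgi, measured 145, 146, 164 and 41.2 CPM in the 4 P6 ileum libraries, Rab4b, a Rab of rapid recycling, 23.3, 24.0, 26.4 and 5.74, and Rab5a of the early endosome 65.4, 64.3, 58.3 and 127. The first 3 libraries were close to one another for each gene and the last was low for Rab1b and Rab4b and high for Rab5a. Across the 48 members this deviation had a Spearman correlation of -0.82 with the GC content of the transcript, as a description over genes of 1 library, and -0.75 across 13355 tested genes. The epithelial markers Vil1 and Krt8 were also low there, at 752 and 256 CPM against at least 1444 and 1113 in the other 3. Krt18, Cdx1, Cdx2 and Epcam were lowest there too, Epcam at 1747 CPM against at least 1834. Cdh1 was highest there, at 867 CPM against 792 to 848, and Krt20, at 38.6, lay within the others' 32.5 to 55.5. The part of GC content and of cell makeup in these values was not tested, and results that rest on this library are given with and without it.

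**Figure D1:**
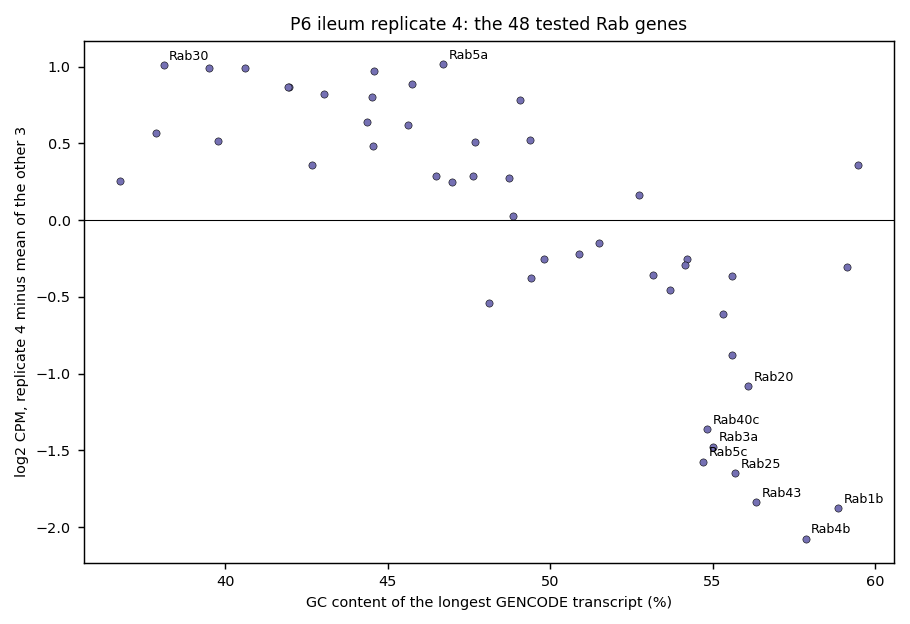
Each point is 1 of the 48 tested Rab genes. The x axis is the GC content of its longest GENCODE transcript in percent, and the y axis is its log2 CPM in P6 ileum replicate 4 minus the mean of the other 3 P6 ileum libraries. Members of high GC content, such as Rab4b, Rab1b and Rab43, lie up to 2.08 below 0, and members of low GC content, such as Rab30, lie above it.

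Summed per length, the members took a larger part of the transcripts at P6 than at P36. The 59 genes together reached 4845 ± 23.1 TPM (SD, n = 4) at P6 in jejunum and 5092 ± 611 in ileum. At P36 the sums were 2797 ± 83.2 TPM in jejunum and 2735 ± 93.1 in ileum. The lowest P6 library held 4725 TPM and the highest P36 library 2881, so the ages did not overlap. For the 11 Rabs of late endosomes, lysosomes and autophagy the sum was 582 ± 6.02 TPM at P6 in jejunum and 795 ± 94.8 in ileum, and 248 ± 4.97 and 267 ± 19.4 at P36. The 9 Rabs of secretory granules were the exception to this order, at 32.7 ± 1.89, 62.7 ± 0.86, 41.4 ± 2.78 and 63.2 ± 6.96 TPM in P6 jejunum, P6 ileum, P36 jejunum and P36 ileum. The ileum was above the jejunum at both ages, without overlap. For the other sums given here, the regional gap at P6 depended on the unit, and for all members also on P6 ileum replicate 4. Summed as CPM, all members reached 5646 ± 285 for jejunum and 4507 ± 515 for ileum, the reverse order of the TPM means. The TPM order rests on replicate 4 of the ileum, at 6006 TPM. The lowest P6 ileum library, at 4725 TPM, was below the P6 jejunum libraries, which ran from 4830 to 4880. The list of late endosomes, lysosomes and autophagy reached 594 ± 26.5 and 620 ± 49.2 CPM. Both were lower at P36, at 3508 and 3298 CPM for all members and 293 and 309 for that list. The lists of Rabs by role are hand-made, and several Rabs act in more than 1 place.

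**Figure D2:**
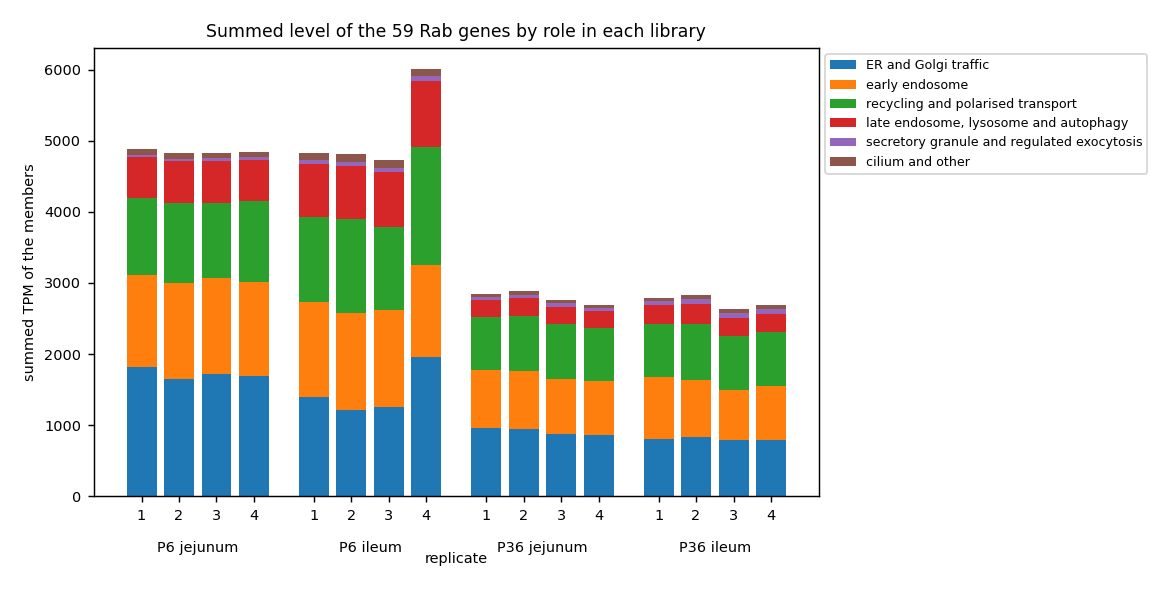
Stacked bars give the summed TPM of the 59 Rab genes in each of the 16 libraries (x axis, replicates 1 to 4 of each group), coloured by the role of the genes. All P6 libraries reach at least 4725 TPM and all P36 libraries stay at or below 2881, and P6 ileum replicate 4 has the highest bar at 6006.

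Rab1, the Rab of transport from ER to Golgi, had the highest mean level of all members in each group, at 756 ± 31.2 TPM in the P6 jejunum, 655 ± 262 in the P6 ileum, 344 ± 32.8 for P36 jejunum and 249.7 ± 7.99 for P36 ileum. In the P6 ileum its lead over Rab11a, at 619.9 ± 281 TPM, and in the P36 ileum its lead over Rab25, at 245 ± 37.6, were within 1 SD. Rab5c, an early endosome Rab, came second in both jejunum groups with 598 ± 21.4 TPM at P6 and 261 ± 22.3 at P36. Rab30, a Golgi Rab, ranked 5 in the P6 jejunum at 273 ± 51.9 TPM and in none of the other groups among the first 10. Rab25, a relative of Rab11 found in epithelia, ranked 10 in the P6 jejunum at 146 ± 7.99 TPM and second in the P36 ileum.

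Fewer members rose than fell between P6 and P36. By edgeR's quasi-likelihood test with Benjamini-Hochberg adjustment over all genes tested, at an adjusted p below 0.05, 3 of the 48 tested members were higher at P36 in the jejunum (background 24.7% of all genes tested) and 20 were higher at P6 (background 26.9%). In the ileum 7 were higher at P36 (background 25.5%) and 21 at P6 (background 30.1%). In both regions the share of members that rose was below the background and the share that fell was above it. Without P6 ileum replicate 4 the ileum counts were 10 and 24, and without P6 ileum replicate 2 they were 7 and 21. The median log2 fold change of the members, P36 minus P6, was -0.33 in the jejunum and -0.38 in the ileum, beside -0.01 and -0.03 over all genes tested. With the additional demand of an absolute log2 fold change above 2, 5 members passed in the jejunum and 5 in the ileum, all of them higher at P6 (background 16.4% in the jejunum and 16.4% in the ileum, both directions). Scaling by library totals alone gave 7 and 19 in the jejunum and 7 and 23 in the ileum, and a correction for GC content gave 7 higher at P36 in the jejunum. This correction was fitted to each library's deviation from its own group mean. It narrows the spread within groups and leaves group differences largely in place, so higher counts under it are no separate support. Without P36 jejunum replicate 3, 5 members were higher at P36 in the jejunum. The 2 age comparisons use different libraries of the same 8 mice, so they are not independent. By count, 17 members were lower at P36 in both, which is 85.0% of those in the jejunum and 81.0% of those in the ileum, 2 were higher at P36 in both, and 0 were called in opposite directions. The same shares over all genes tested are not given here, so these percents do not set the members apart from other genes.

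**Figure D3:**
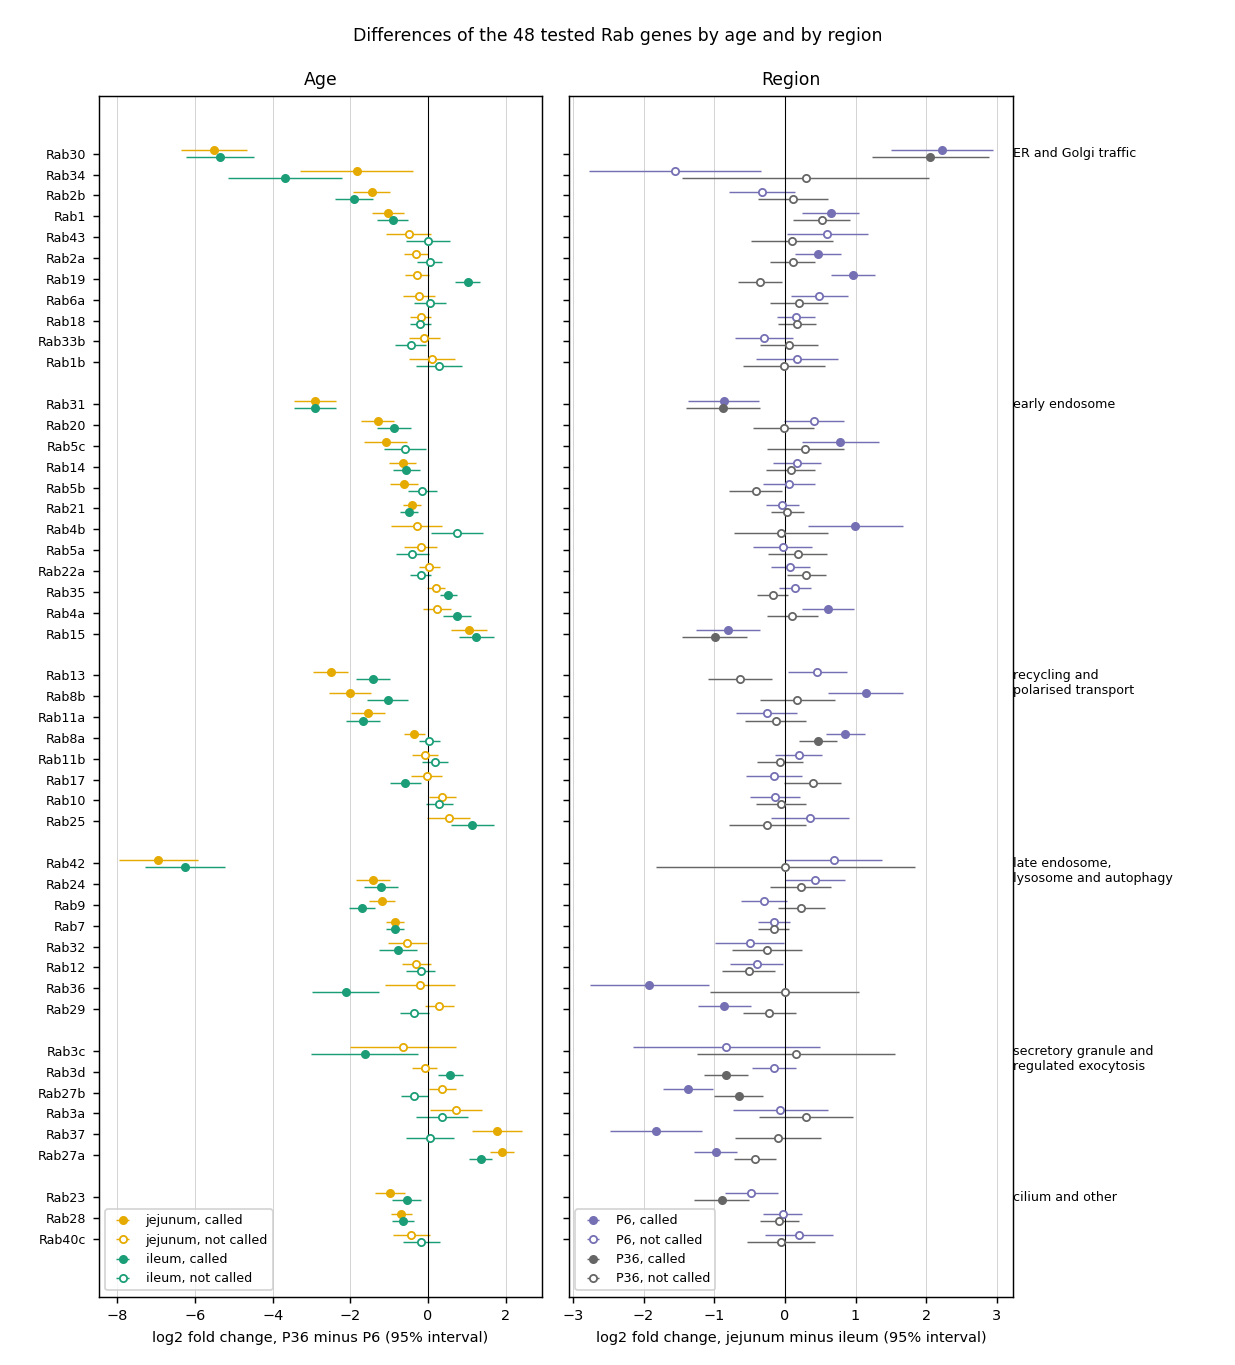
Rows are the 48 tested Rab genes ordered by role. The left panel gives the log2 fold change of P36 over P6 in the jejunum and the ileum, and the right panel that of jejunum over ileum at P6 and at P36, each with its 95% interval, where filled points passed an adjusted p of 0.05 and open points did not. On the left, Rab42 and Rab30 lie farthest to the side of P6 and Rab27a, Rab37 and Rab15 to the side of P36.

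Rab30, which resides on the Golgi and is involved in keeping its structure, had the largest fall among members with counts in every library. It measured 339, 248, 246 and 222 CPM in the 4 P6 jejunum libraries and 7.06, 3.71, 5.03 and 7.46 in those of the P36 jejunum. In the ileum the values were 80.0, 36.5, 25.6 and 84.9 CPM at P6 and 1.71, 1.25, 0.939 and 1.74 at P36. Every P6 library was above every P36 library of the same region. Of all genes tested, 63.8% had ages without overlap in the jejunum and 44.4% in the ileum, in either direction. These shares apply to each statement below that the ages did not overlap. The log2 fold change was -5.51 ± 0.40, adjusted p = 1.25e-08 in the jejunum and -5.35 ± 0.41, adjusted p = 2.99e-08 in the ileum (SE, here and for all fold changes below). Rab42, placed here with the Rabs of late endosomes and lysosomes, was seen almost only at P6. It had 18.7, 21.3, 18.9 and 18.3 CPM in the P6 jejunum and 12.3, 11.1, 14.4 and 10.1 in the P6 ileum. At P36 its raw counts were 5, 0, 5 and 2 in the jejunum and 0, 4, 5 and 2 in the ileum. Its fitted fold changes rest on these few counts and on the prior count, and the adjusted p was 7.09e-09 and 2.67e-08.

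Rab31, which carries cargo between the trans-Golgi network and endosomes, fell in both regions as well. Its levels were 38.2, 45.6, 40.3 and 41.9 CPM in the P6 jejunum and 6.71, 5.43, 5.25 and 4.64 in the P36 jejunum. They were 69.9, 69.7, 64.8 and 97.9 CPM in the P6 ileum and 16.7, 8.34, 6.04 and 9.42 in the P36 ileum. In both regions the lowest P6 library was more than 3 times the highest P36 library. The log2 fold change was -2.91 ± 0.26, adjusted p = 1.18e-07 in the jejunum and -2.90 ± 0.25, adjusted p = 1.18e-07 in the ileum. Together with Rab30 and Rab42 it made up the members past 2 log2 units in both regions. On the other side, Rab15, which acts at the recycling endosome, and Rab27a, which docks secretory granules, were called higher at P36 in both regions.

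The windows upstream of 4 genes are shown because these members fell by more than 2 log2 units in both regions or rose in both. Promoter windows of RefSeq, build GRCm38.p6, matched 48 of the 59 members, with 60 annotated starts, and held none for Rab30. Each sequence is the 250 bases before the outermost annotated start, read 5′ to 3′ on the strand of the gene, and capitals mark every match on either strand to CACGTG (an E-box), to GGGCGG (the GC box), to CCAAT (the CCAAT box), to TATAAA (the TATA box) or to TGACTCA (the AP-1 site), none of which contains another.
Rab42 (chr4:132303357-132303606, minus strand): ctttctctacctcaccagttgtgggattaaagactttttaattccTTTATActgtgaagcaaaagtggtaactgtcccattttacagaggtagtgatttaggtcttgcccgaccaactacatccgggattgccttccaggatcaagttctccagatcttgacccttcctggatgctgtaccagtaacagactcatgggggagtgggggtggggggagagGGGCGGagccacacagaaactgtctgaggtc
Rab31 (chr17:65772753-65773002, minus strand): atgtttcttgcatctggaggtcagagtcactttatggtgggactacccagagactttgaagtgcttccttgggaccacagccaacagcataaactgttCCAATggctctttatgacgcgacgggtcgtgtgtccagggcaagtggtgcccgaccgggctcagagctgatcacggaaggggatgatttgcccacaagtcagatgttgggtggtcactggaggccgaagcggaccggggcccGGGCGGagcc
Rab15 (chr12:76822525-76822774, minus strand): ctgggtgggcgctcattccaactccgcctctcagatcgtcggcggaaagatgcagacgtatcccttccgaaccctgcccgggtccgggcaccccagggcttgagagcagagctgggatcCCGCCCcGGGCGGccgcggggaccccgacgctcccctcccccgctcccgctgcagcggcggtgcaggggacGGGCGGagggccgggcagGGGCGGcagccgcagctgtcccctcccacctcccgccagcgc
Rab27a (chr9:73044560-73044809, plus strand): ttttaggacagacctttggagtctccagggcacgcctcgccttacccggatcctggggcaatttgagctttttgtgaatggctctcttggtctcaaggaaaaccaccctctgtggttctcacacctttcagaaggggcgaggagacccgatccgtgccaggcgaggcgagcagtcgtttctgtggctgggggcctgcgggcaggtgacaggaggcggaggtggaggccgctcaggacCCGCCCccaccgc
All 4 windows hold GGGCGG, the letters of the GC box, and the Rab15 window holds it 4 times. It was present in 66.7% of the 60 member windows and in 32.7% of all 32851 windows of the same length. CACGTG stood in 8.33% of member windows and 6.02% of all, CCAAT in 40.0% and 33.8%, TATAAA in 6.67% and 12.4%, and TGACTCA in 3.33% and 4.46%. The member windows had a median GC content of 60.2%, against 52.4% over all windows. Among the 20 windows of 16 members lower at P36 in both regions, 75.0% held GGGCGG and 15.0% CACGTG. These are matches of letters in a short window, and binding was not measured.

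Among the 11 tested Rabs of the ER and Golgi, 4 fell with age in the jejunum (background 26.9%) and 4 in the ileum (background 30.1%). In the ileum 1 rose (background 25.5%). Rab1 measured 1082, 1003, 908 and 1051 CPM in the P6 jejunum and 562, 508, 442 and 464 in the P36 jejunum, without overlap, with a log2 fold change of -1.03 ± 0.19, adjusted p = 0.000291. In the ileum it went from 588, 523, 495 and 976 to 376, 305, 358 and 337 CPM, again without overlap, with -0.91 ± 0.19, adjusted p = 0.000799, and without P6 ileum replicate 4 with -0.64, adjusted p = 0.000286. Rab2b, a Rab between Golgi and ER that was far lower in level, fell, with log2 fold changes of -1.46 in the jejunum and -1.90 in the ileum. Rab34, which acts at the Golgi and in ciliogenesis, stayed below 2.1 CPM in every library, and its jejunum call (log2 fold change -1.83 ± 0.69, adjusted p = 0.0347) was lost in 8 of the 15 alternative analyses that gave it a value. The member of this list that rose was Rab19, placed here with the Golgi Rabs. In the ileum it measured 8.44, 10.9, 10.4 and 8.88 CPM at P6 and 23.3, 17.8, 17.4 and 19.8 at P36, with a log2 fold change of 1.02 ± 0.15, adjusted p = 2.64e-05, while in the jejunum the difference was -0.29 ± 0.15, adjusted p = 0.113.

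Of the 12 Rabs of the early endosome, 6 fell and 1 rose in the jejunum (background 26.9% and 24.7%). In the ileum 4 fell and 3 rose, close to the background of 30.1% and 25.5%. Rab5c, 1 of the 3 Rab5 proteins that drive fusion of early endosomes, measured 578, 639, 555 and 604 CPM in the P6 jejunum and 313, 287, 252 and 264 in the P36 jejunum. The groups did not overlap, and the log2 fold change was -1.09 ± 0.26, adjusted p = 0.00225. In the ileum Rab5c did not pass the test, at -0.60 ± 0.26, adjusted p = 0.0586, and its P6 libraries spread from 138.9 CPM in replicate 4 to 438. Without that replicate the ileum value was -0.86, adjusted p = 2.96e-05. Rab20, found on endosomes and phagosomes, fell in both regions, with log2 fold changes of -1.30 (jejunum) and -0.88 (ileum). So did Rab14, between Golgi and endosomes, with -0.65 and -0.56, and Rab21, a Rab of integrin traffic, with -0.42 and -0.48. Rab5b passed in the jejunum with -0.62 ± 0.18, adjusted p = 0.00749, and in the ileum it had -0.15 ± 0.17, adjusted p = 0.481.

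Rab15 went the other way. It had 13.1, 8.48, 14.1 and 9.48 CPM in the P6 jejunum and 21.5, 24.2, 23.6 and 24.6 in the P36 jejunum, with a log2 fold change of 1.06 ± 0.22, adjusted p = 0.000716. In the ileum it had 21.9, 15.8, 27.4 and 13.8 CPM at P6 and 38.9, 44.7, 58.6 and 45.0 at P36, with 1.25 ± 0.22, adjusted p = 0.00015. Neither pair of groups overlapped, and the P36 ileum was the group with the highest values. Rab4a, which returns cargo rapidly from early endosomes to the surface, was called in the ileum, at 30.9, 39.2, 36.5 and 25.8 CPM at P6 and 77.2, 48.7, 43.4 and 52.8 at P36, with 0.75 ± 0.17, adjusted p = 0.00169. Rab35, a Rab of endosomal recycling, rose there by 0.52 ± 0.11, adjusted p = 0.000626.

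Among the 8 Rabs of recycling and polarised transport, 4 fell in each region (background 26.9% in the jejunum and 30.1% in the ileum). In the ileum 1 rose (background 25.5%). Rab11a, the main Rab of apical recycling endosomes, had 448, 491, 378 and 479.9 CPM in the P6 jejunum and 169, 143, 150.2 and 150.1 in the P36 jejunum. It had 416, 503, 376 and 851 CPM in the P6 ileum and 176, 150.2, 172 and 171 in the P36 ileum. P6 lay above P36 in all libraries of both regions. The log2 fold change was -1.55 ± 0.21, adjusted p = 1.26e-05 in the jejunum and -1.68 ± 0.21, adjusted p = 5.52e-06 in the ileum, and -1.36, adjusted p = 1.77e-07 without P6 ileum replicate 4. Rab13, which carries proteins to tight junctions, measured 14.2, 16.9, 12.3 and 19.6 CPM in the P6 jejunum and 2.24, 2.91, 3.10 and 2.77 in the P36 jejunum, a log2 fold change of -2.51 ± 0.21, adjusted p = 7.98e-08. In the ileum it measured 11.4, 14.4, 10.1 and 9.91 CPM at P6 and 3.98, 4.37, 5.55 and 3.17 at P36, with -1.41 ± 0.21, adjusted p = 2.79e-05. These groups did not overlap in either region.

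Rab8b, a close relative of Rab8a, which carries cargo to the apical membrane, fell in both regions. It had 156, 126, 124 and 129.6 CPM in the P6 jejunum and 39.7, 33.1, 31.7 and 28.7 in the P36 jejunum, with a log2 fold change of -2.01 ± 0.26, adjusted p = 7.28e-06. In the ileum the values were 61.4, 44.5, 41.1 and 95.9 CPM at P6 and 43.7, 25.2, 24.3 and 24.6 at P36, with -1.04 ± 0.25, adjusted p = 0.00228, and here the highest P36 library overlapped the P6 libraries. Rab8a itself had a log2 fold change of -0.36 ± 0.13, adjusted p = 0.0277 in the jejunum, a call that was kept in 10 of 17 alternatives, and in the ileum its difference was 0.03 ± 0.13, adjusted p = 0.859. Rab25 rose in the ileum, from 70.0, 79.1, 70.3 and 23.2 to 111, 126, 154 and 145 CPM, with 1.14 ± 0.26, adjusted p = 0.00161, or 0.87, adjusted p = 1.4e-05 without P6 ileum replicate 4, which was its lowest value. In the jejunum Rab25 had 0.53 ± 0.26, adjusted p = 0.097. Rab17, which acts in transcytosis in epithelial cells, was called lower at P36 in the ileum (-0.58 ± 0.19, adjusted p = 0.0157) with overlapping groups. The call was lost without P6 ileum replicate 2, without P36 ileum replicate 2 and in the fit of only the 8 libraries compared.

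The 8 tested Rabs of late endosomes, lysosomes and autophagy held 4 calls in the jejunum (background 26.9%) and 6 in the ileum (background 30.1%), all higher at P6. Rab7, which drives fusion of late endosomes with lysosomes, had 345, 354, 333 and 346 CPM in the P6 jejunum and 201, 195, 179.9 and 187 in the P36 jejunum, with a log2 fold change of -0.85 ± 0.11, adjusted p = 5.39e-06. In the ileum it had 358, 372, 365 and 441 CPM at P6 and 226, 204, 208 and 214 at P36, with -0.85 ± 0.11, adjusted p = 5.4e-06. The 2 regions thus changed by nearly the same amount, without overlap between ages. Rab9, which returns receptors from late endosomes to the Golgi, measured 72.2, 68.6, 66.3 and 72.9 CPM in the P6 jejunum and 27.8, 36.9, 28.4 and 30.7 in the P36 jejunum, with -1.18 ± 0.16, adjusted p = 1.22e-05. For the ileum the values were 75.7, 86.9, 64.6 and 116 CPM and 25.7, 26.9, 29.1 and 24.0, with -1.70 ± 0.16, adjusted p = 2.57e-07. All P6 values of Rab9 exceeded all P36 values. Rab24, linked to autophagy, fell in both regions, with -1.42 (jejunum) and -1.21 (ileum). In the ileum, Rab32, which serves lysosome-related organelles, was called with -0.77 ± 0.23, adjusted p = 0.0104, and Rab36, at no more than 1.46 CPM in any library, with -2.12 ± 0.41, adjusted p = 0.00039.

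Of the 6 tested Rabs of secretory granules and regulated exocytosis, 2 rose and 0 fell in the jejunum (background 24.7% and 26.9%), and 2 rose and 1 fell in the ileum (background 25.5% and 30.1%). Rab27a measured 5.37, 4.68, 4.88 and 4.55 CPM in the P6 jejunum and 16.2, 21.2, 17.2 and 19.0 in the P36 jejunum, with a log2 fold change of 1.92 ± 0.15, adjusted p = 2.29e-08. In the ileum it measured 10.2, 9.61, 7.81 and 10.9 CPM at P6 and 24.9, 21.5, 25.2 and 27.1 at P36, with 1.36 ± 0.14, adjusted p = 8.77e-07. The order P6 jejunum, P6 ileum, P36 jejunum, P36 ileum held without overlap between neighbours. The difference between the regions at P36 did not pass the test, at -0.42 ± 0.14, adjusted p = 0.0507. Rab37, also a Rab of secretory granules, rose in the jejunum from 1.05, 0.759, 0.578 and 0.622 to 3.24, 1.90, 2.65 and 2.66 CPM, with 1.78 ± 0.30, adjusted p = 0.000142, and in the ileum had 0.05 ± 0.29, adjusted p = 0.895. Rab3d, found on zymogen and mucous granules, rose in the ileum from 42.6, 52.3, 45.3 and 36.3 to 57.3, 60.3, 84.0 and 61.7 CPM, with 0.58 ± 0.15, adjusted p = 0.00345. The member that fell was Rab3c, at no more than 4.12 CPM, with -1.63 ± 0.65, adjusted p = 0.0421, and this call was lost when any 1 of 7 of the 8 ileum libraries was left out.

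Goblet cell markers were higher at P36 in both regions. The summed level of 6 such genes had medians of 1897 CPM in the P6 jejunum, 3510.5 in the P6 ileum, 8382 for P36 jejunum and 14502 for P36 ileum, and 6 of 6 were called higher at P36 in each region. For the 4 Paneth cell markers in the files the medians were 299, 261, 4697 and 6544 CPM, and 3 of 4 rose in each region. The P6 medians fall between libraries parted by Itln1 alone. It measured 782, 7.09, 557 and 4.36 CPM in the P6 jejunum and 620, 10.3, 435 and 8.09 in the P6 ileum. The high libraries were replicates 1 and 3, which share the first part of the mouse label. The other Paneth markers reached at most 21.2 CPM at P6. The 8 enteroendocrine markers had medians of 244, 150, 265 and 94.2 CPM. Of them 2 rose in the jejunum, while in the ileum 1 rose and 3 fell. Tuft cell markers rose in both regions, 4 of 4, with sums of 0.625 to 0.862 CPM in the P6 jejunum, 1.14 to 3.58 for P6 ileum, 16.4 to 20.8 for P36 jejunum and 9.56 to 17.3 for P36 ileum. Of 5 T cell markers, 5 rose in the jejunum, where their sum ranged over 3.14 to 8.76 CPM at P6 and 5.69 to 89.1 at P36. In the ileum 0 were called by edgeR (0 at an unadjusted p below 0.05), with sums of 1.38 to 6.33 and 2.44 to 4.41 CPM. No marker of these 5 lists was at 0 in all libraries of a group. The 5 myeloid and B cell markers summed to 416 to 499.8 CPM in P6 jejunum and 163 to 342 in P6 ileum. At P36 they summed to 4.68 to 52.2 CPM in jejunum and 4.20 to 34.2 in ileum. Of them 4 were called higher at P36 and 1 at P6 in the jejunum, and 2 and 1 in the ileum. Most of the P6 sums was Csf1r alone, with 461, 498, 415 and 448 CPM for jejunum and 239, 333, 250 and 152 for ileum. Each of the other markers of this list stayed at or below 8.09 CPM at P6, and 1 of them was at 0 throughout the P6 jejunum. The part of these cells in the levels of the Rabs was not tested.

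The tested Rabs of the cilium and other places, 3 in number, included 2 that fell in both regions (background 26.9% in the jejunum and 30.1% in the ileum). Rab23, a negative regulator of hedgehog signalling, had a log2 fold change of -0.97 ± 0.18, adjusted p = 0.000369 in the jejunum and -0.55 ± 0.18, adjusted p = 0.0163 in the ileum. Rab28, a Rab of the cilium, had -0.69 and -0.64. Rab40c, which carries a SOCS box, had -0.43 and -0.17 and passed in neither.

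**Figure D4:**
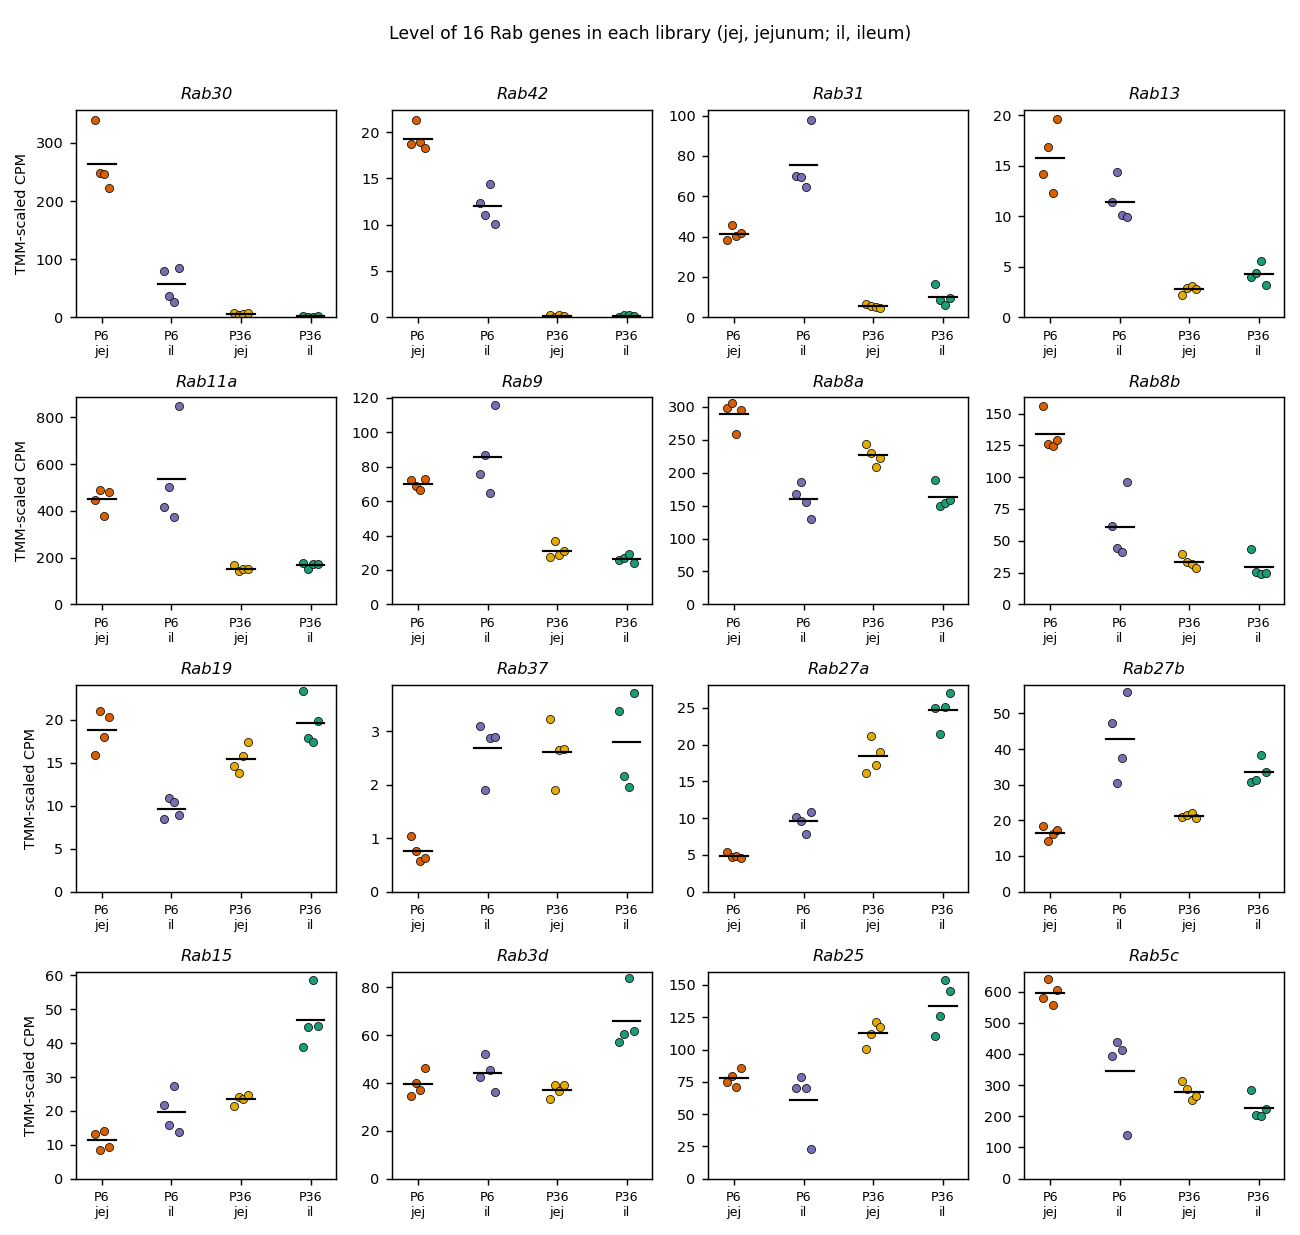
Each panel is 1 of 16 Rab genes, with TMM-scaled CPM on the y axis from 0 and the 4 groups on the x axis. Points are the 4 libraries of a group and the line is their mean. Rab30, Rab42, Rab31 and Rab13 are high in the P6 groups, Rab27a and Rab15 climb towards the P36 ileum, and Rab19 and Rab37 passed the test between regions at P6 and not at P36.

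At P6 the jejunum and the ileum differed in members of different roles. In the jejunum 9 of 48 members were higher (background 11.1%) and in the ileum 7 (background 14.8%), and 1 member, Rab30, passed an absolute log2 fold change of 2 (background 6.50%, both directions). The jejunum share was above the background and the ileum share close to it. The median log2 fold change, jejunum minus ileum, was 0.01 for the members and -0.05 over all genes tested. Without P6 ileum replicate 4 the counts were 14 and 7, with none of the 16 calls lost, and without P6 ileum replicate 2, the library with stromal markers, 7 and 7. Without P6 jejunum replicate 1 or replicate 4, 5 members were higher in the jejunum. Scaling by library totals alone gave 4 and 19, with the median of all genes tested at -0.33, a shift of -0.29 on the log2 scale. A correction for GC content, which narrows the spread within groups, gave 15 and 9.

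All members higher in the P6 jejunum belonged to the ER and Golgi, early endosome and recycling lists, which hold 11, 12 and 8 of the 48 tested members. For Rab30 the jejunum values of 339, 248, 246 and 222 CPM stood against 80.0, 36.5, 25.6 and 84.9 in the ileum, a log2 fold change of 2.22 ± 0.34, adjusted p = 0.000182. Rab8b, with 156, 126, 124 and 129.6 CPM in the jejunum and 61.4, 44.5, 41.1 and 95.9 in the ileum, had 1.14 ± 0.25, adjusted p = 0.00308. Rab8a had 298, 306, 259 and 295 CPM in the jejunum and 168, 185, 155 and 130.4 in the ileum, with 0.86 ± 0.13, adjusted p = 0.000142. In all 3 the lowest jejunum library was above the highest ileum library. Of all genes tested, 30.1% had regions without overlap at P6, in either direction. Rab19, with 15.9, 21.0, 18.0 and 20.3 CPM against 8.44, 10.9, 10.4 and 8.88, also kept the groups apart, with 0.96 ± 0.15, adjusted p = 0.000186. These 4 calls were kept in all 19 alternatives.

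The other 5 calls in the jejunum were less firm. Rab4a had a log2 fold change of 0.61 ± 0.17, adjusted p = 0.0155 and Rab4b of 1.00 ± 0.32, adjusted p = 0.0295, and of 19 alternatives 17 and 14 kept the call. Rab5c, at 578, 639, 555 and 604 CPM in the jejunum and 394, 438, 411 and 139 in the ileum, had 0.78 ± 0.26, adjusted p = 0.0348 and kept it in 13, and Rab1, with 0.65 ± 0.19, adjusted p = 0.0196, also in 13. Rab2a, which acts between ER and Golgi, had 0.47 ± 0.15, adjusted p = 0.0322 and kept it in 11. Rab1 and Rab2a overlapped between the regions in replicate 4 of the ileum, at 976 and 228 CPM. Without that library all 5 passed, with log2 fold changes of 0.51 for Rab4a, 0.69 for Rab4b, 0.52 for Rab5c, 0.92 for Rab1 and 0.66 for Rab2a, and Rab5a, Rab6a, Rab14, Rab18 and Rab43 passed in addition.

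Higher in the P6 ileum were 3 of the 6 tested Rabs of secretory granules (background 14.8%). So were 2 of the 12 of the early endosome and 2 of the 8 tested of late endosomes and lysosomes. Rab27b, a partner of Rab27a in granule docking, had 18.5, 14.1, 16.2 and 17.3 CPM in the jejunum and 47.2, 30.5, 37.6 and 56.0 in the ileum, with a log2 fold change of -1.37 ± 0.17, adjusted p = 1.97e-05. Rab27a, with 5.37, 4.68, 4.88 and 4.55 and 10.2, 9.61, 7.81 and 10.9 CPM, had -0.98 ± 0.14, adjusted p = 0.000124. Rab37, at 1.05, 0.759, 0.578 and 0.622 CPM in the jejunum and 3.11, 1.90, 2.87 and 2.89 in the ileum, had -1.83 ± 0.30, adjusted p = 0.000375. For these 3 the ileum lay above the jejunum in every library. Of the markers of granule-bearing cells, 4 of 6 goblet and 2 of 4 Paneth genes were called higher in the ileum (background 14.8%). Of 8 enteroendocrine genes 0 were higher in the ileum and 2 in the jejunum (background 11.1%). The part of these cells in the Rab levels was not tested. Rab31, at 38.2, 45.6, 40.3 and 41.9 CPM against 69.9, 69.7, 64.8 and 97.9, had -0.86 ± 0.24, adjusted p = 0.0134. Rab15 had -0.81 ± 0.22, adjusted p = 0.0122, with overlapping groups.

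The members of the lysosomal list called here were Rab29 and Rab36. Rab29, a partner of the kinase LRRK2, had 5.80, 5.04, 4.73 and 4.88 CPM in the jejunum and 8.34, 11.2, 9.33 and 8.19 in the ileum, with a log2 fold change of -0.86 ± 0.17, adjusted p = 0.00185. Rab36, linked to the position of late endosomes, had 0.436, 0.357, 0.263 and 0.335 CPM and 1.33, 1.42, 1.46 and 1.13, with -1.92 ± 0.39, adjusted p = 0.00201. Both kept the regions apart, at low levels. Rab7, of this list the most abundant per length in the P6 jejunum, and Rab9 did not pass, with -0.16 ± 0.10, adjusted p = 0.298 and -0.29 ± 0.15, adjusted p = 0.183 and 95% intervals of -0.38 to 0.07 and -0.62 to 0.04. Rab42 had 0.69 ± 0.32, adjusted p = 0.133, with jejunum libraries all above those of the ileum.

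At P36 fewer members were called between the regions. In the jejunum 2 were higher (background 8.30%) and in the ileum 5 (background 7.80%), and 1 passed an absolute log2 fold change of 2 (background 3.60%, both directions). Scaling by library totals alone gave 2 and 11, a correction for GC content gave 4 and 8, and without P36 jejunum replicate 1, P36 ileum replicate 2 or P36 ileum replicate 4 the jejunum count was 1. Rab30 was higher in the jejunum at 7.06, 3.71, 5.03 and 7.46 CPM against 1.71, 1.25, 0.939 and 1.74 in the ileum, with 2.06 ± 0.39, adjusted p = 0.00173, at levels far below those of P6. Rab8a had 244, 229, 209 and 223 CPM in the jejunum and 189.5, 149, 154 and 159 in the ileum, with 0.47 ± 0.13, adjusted p = 0.0184. Both genes kept the regions apart at this age too, as did 26.9% of all genes tested. Higher in the ileum were Rab15 (21.5, 24.2, 23.6 and 24.6 CPM against 38.9, 44.7, 58.6 and 45.0, log2 fold change -0.99 ± 0.21, adjusted p = 0.00463) and Rab3d (33.4, 39.1, 36.7 and 39.1 against 57.3, 60.3, 84.0 and 61.7, -0.83 ± 0.15, adjusted p = 0.00108). Rab23 followed with -0.90 ± 0.19, adjusted p = 0.00351, Rab31 with -0.88 ± 0.25, adjusted p = 0.0236 and Rab27b with -0.65 ± 0.16, adjusted p = 0.012, of which Rab31 overlapped between the regions and kept its call in 14 of 19 alternatives. Rab30 and Rab8a were thus higher in the jejunum and Rab15, Rab31 and Rab27b in the ileum at both ages.

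Whether the regional difference itself changed with age was tested as an interaction, the difference of jejunum minus ileum at P6 less that at P36. It was called for 2 members in the positive direction (background 3.68%) and for 1 in the negative (background 5.01%). Scaling by library totals alone gave 1 and 4, a correction for GC content 9 and 6, the mouse as a block 3 and 2, and both together 13 and 5. Rab19 had the smallest adjusted p of the members in this test, 1.31 ± 0.21, adjusted p = 0.000878: it was higher in the jejunum at P6, while at P36 its regional difference was -0.35 ± 0.15, adjusted p = 0.126. Rab13 had 1.10 ± 0.29, adjusted p = 0.0274, with regional differences of 0.46 ± 0.20, adjusted p = 0.101 at P6 and -0.64 ± 0.21, adjusted p = 0.0513 at P36, and 18 of 26 alternatives kept it. Rab37 had -1.73 ± 0.42, adjusted p = 0.0162: it was lower in the jejunum at P6, and at P36 its difference was -0.10 ± 0.29, adjusted p = 0.875. For Rab8b, called between regions at P6 and not at P36, the interaction was 0.97 ± 0.35, adjusted p = 0.106, and 1.28, adjusted p = 0.00691 without P6 ileum replicate 4. Without that library 9 members were positive and 3 negative, the others being Rab2a, Rab3d, Rab4b, Rab5b, Rab6a, Rab14, Rab17 and Rab36 beside Rab8b.

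Related Rab genes were compared per length for 15 pairs. Rab8a exceeded Rab8b in each group, and by a larger factor at P36: Rab8b went from 56.1 ± 5.77 to 13.0 ± 1.64 TPM in the jejunum while Rab8a went from 286 ± 6.97 to 208 ± 10.7. The log2 fold change with age was 1.65 higher for Rab8a in the jejunum and 1.07 higher in the ileum. Rab11a and Rab25 changed places. In the P6 jejunum Rab11a held 382 ± 26.1 TPM and Rab25 146 ± 7.99, and in the P36 jejunum 121 ± 5.84 and 197 ± 20.2. For the P36 ileum they were 139 ± 1.43 and 245 ± 37.6 TPM. Rab11b, the other close relative, had log2 fold changes with age of -0.08 ± 0.15, adjusted p = 0.701 in the jejunum and 0.18 ± 0.15, adjusted p = 0.327 in the ileum.

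Rab27a and Rab27b also changed order. In the P6 jejunum Rab27b was higher, at 4.38 ± 0.529 TPM against 2.82 ± 0.264, and in the P36 jejunum Rab27a, at 9.93 ± 1.42 against 5.24 ± 0.296. The same held in the ileum, with 15.3 ± 4.69 TPM for Rab27b and 7.48 ± 1.23 for Rab27a at P6 and 8.60 ± 0.947 and 13.8 ± 0.689 at P36. Rab27b itself did not pass between the ages, with 0.36 ± 0.16, adjusted p = 0.0753 in the jejunum and -0.36 ± 0.16, adjusted p = 0.074 in the ileum. Rab31 fell with age, and its relative Rab22a, an early endosome Rab, had 0.03 ± 0.13, adjusted p = 0.858 and -0.19 ± 0.13, adjusted p = 0.224. Rab1 likewise fell, and Rab1b had 0.10 ± 0.27, adjusted p = 0.779 and 0.29 ± 0.28, adjusted p = 0.394 with 95% intervals of -0.48 to 0.69 and -0.30 to 0.87. Rab2b fell, while Rab2a had -0.31 ± 0.15, adjusted p = 0.0963 and 0.05 ± 0.15, adjusted p = 0.814.

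Among the 3 Rab5 genes, Rab5c was the most abundant in each group and Rab5a and Rab5b were lower. In the P6 jejunum Rab5c held 598 ± 21.4 TPM, Rab5a 64.7 ± 1.27 and Rab5b 57.8 ± 1.40. Rab5a passed in none of the comparisons. Rab4a and Rab4b both were higher in the P6 jejunum than in the P6 ileum, and with age in the ileum Rab4a passed while Rab4b had 0.75 ± 0.32, adjusted p = 0.0531. Rab3a, the Rab of synaptic vesicles and endocrine granules, had at most 6.42 CPM and no call, and Rab3d was higher throughout, with group means from 17.8 TPM in the P36 jejunum to 32.9 in the P36 ileum. The second member of the pairs Rab6a and Rab6b, Rab7 and Rab7b, Rab9 and Rab9b, and Rab32 and Rab38 did not pass the filter, so these 4 pairs could not be compared by the test.

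**Figure D5:**
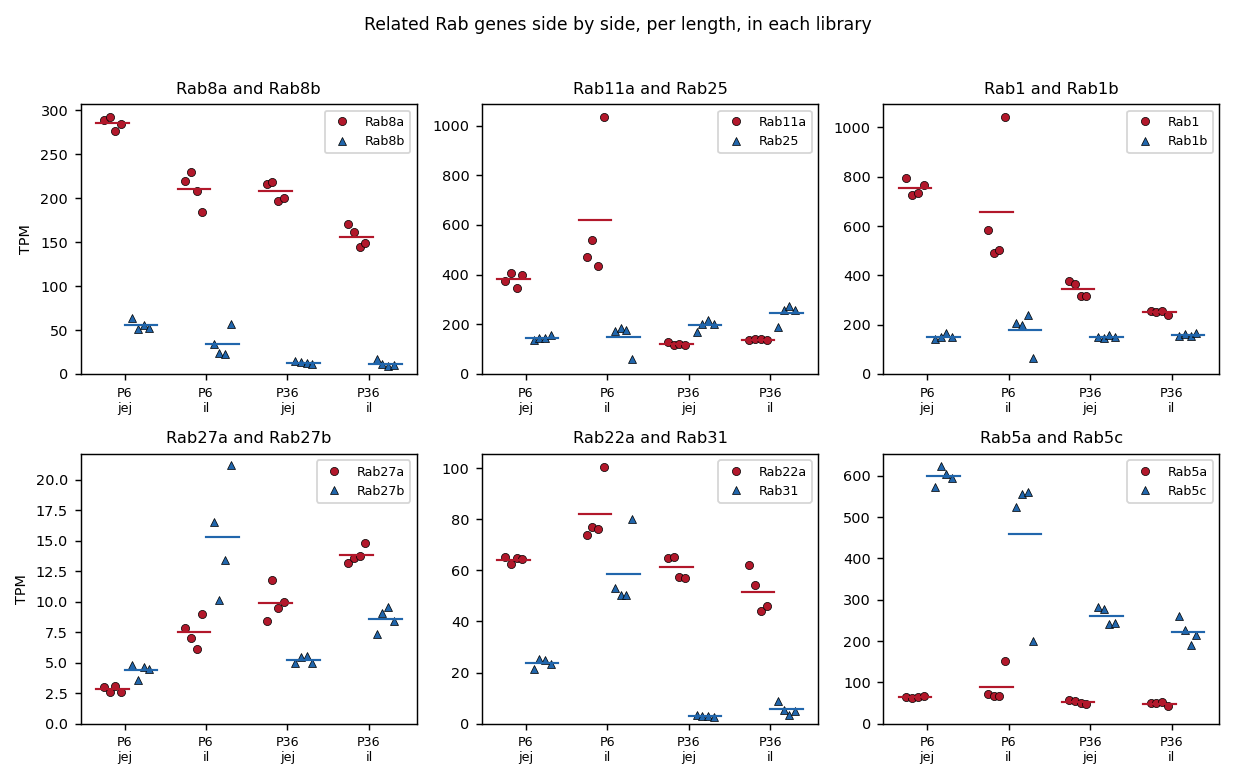
Each panel shows 2 related Rab genes, circles for the first and triangles for the second named, as TPM on the y axis from 0 in the 4 groups on the x axis. Points are libraries and lines are group means of 4. Rab11a and Rab25 exchange order between P6 and P36, as do Rab27a and Rab27b, while Rab8b, Rab31 and Rab5c fall in the jejunum beside Rab8a, Rab22a and Rab5a.

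From a hand-made list of 148 genes in the files that control or read Rab proteins, 144 were tested. Between the ages, 28 were higher at P36 (background 24.7%) and 47 at P6 (background 26.9%) in the jejunum, and 23 (background 25.5%) and 58 (background 30.1%) in the ileum. The share that rose was below the background in both regions and the share that fell above it. The medians of their log2 fold changes were -0.20 and -0.31. Between regions, 14 were higher on the jejunum side at P6 (background 11.1%) and 23 on the ileum side (background 14.8%), shares close to the background, and the P36 counts were 19 (background 8.30%) and 13 (background 7.80%). Scaling by library totals alone, the P6 counts were 5 and 51 and the P36 counts 14 and 18, and without P6 ileum replicate 4 the P6 jejunum count was 26. Of the 10 genes of GDI and prenylation, 0 rose and 1 fell in the jejunum and 2 rose and 2 fell in the ileum. Chm, the escort protein that presents Rabs for prenylation, fell in both, with log2 fold changes of -0.67 and -1.05. In the ileum the CAAX-processing enzymes Rce1 and Icmt rose, with log2 fold changes of 1.12 and 0.44. Between the regions at P6, Rabggta, a subunit of the Rab prenyltransferase, was higher in the jejunum with 0.69 ± 0.23, adjusted p = 0.0354.

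Of 45 tested GEF genes, 9 rose and 18 fell with age in the jejunum, and 9 rose and 20 fell in the ileum, against the backgrounds given above of 24.7% and 26.9% for the jejunum and 25.5% and 30.1% for the ileum. Rab3il1, an exchange factor for Rab8 and Rab3, had mean levels of 75.6 CPM in jejunum and 55.7 in ileum at P6, against 0.198 and 0.104 at P36 (adjusted p = 1.05e-08 and 1.6e-08). Its relative Rab3ip (Rabin8) rose instead, with 1.06 ± 0.10, adjusted p = 1.99e-07 in the jejunum and 0.68 ± 0.10, adjusted p = 2.45e-05 in the ileum. Dennd1a, an exchange factor for Rab35, fell, with log2 fold changes of -2.44 and -2.36 for the jejunum and the ileum, and so did Dennd5a, with -3.02 and -3.51. Rin1, an exchange factor for Rab5, rose by 1.92 and 1.51. Dennd2d rose in the ileum with 0.82 ± 0.17, adjusted p = 0.000704. Between the regions at P6, 6 GEF genes were higher in the jejunum (background 11.1%) and 5 were lower (background 14.8%). Dennd4c, an exchange factor for Rab10, was higher in the jejunum with 1.48 ± 0.18, adjusted p = 2.41e-05, as were Dennd3 with 1.07 and Ric1, of the Rab6 exchange factor, with 0.73. Dennd5a, Rin1 and Rin2 were higher in the ileum, with -0.82, -1.17 and -0.65.

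Of 36 GAP genes, 4 rose and 13 fell in the jejunum and 2 rose and 18 fell in the ileum, with rises below and falls above the same backgrounds. Tbc1d1, a GAP of Rabs of GLUT4 traffic, fell from a mean of 474 to 61.4 CPM in the jejunum and from 328 to 60.9 in the ileum, log2 fold changes of -2.95 ± 0.12, adjusted p = 2.3e-11 and -2.43 ± 0.11, adjusted p = 1.18e-10. In the jejunum Tbc1d16 and Tbc1d7 fell, with -2.91 and -1.25, and in the ileum Tbc1d2b and Tbc1d5, a GAP for Rab7, with -1.76 and -1.16. Tbc1d8 rose in jejunum (0.87) and ileum (0.79), Tbc1d10c and Tbc1d22b in the jejunum by 2.52 and 0.60, and Sgsm3 in the ileum by 1.01. At P6, 3 GAP genes were higher in the jejunum (background 11.1%), namely Tbc1d1, Tbc1d13 and Tbc1d14 with 0.53, 0.42 and 0.42. In the ileum 7 were higher (background 14.8%), led by Tbc1d19, Tbc1d9 and Evi5l with -1.94, -0.83 and -1.24.

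Of 53 tested effector genes, 15 rose and 15 fell in the jejunum and 10 rose and 18 fell in the ileum. The shares were close to the background, apart from rises in the ileum, which were below it. Rab11fip5, an effector of Rab11, had means of 362 CPM in jejunum and 350.1 in ileum at P6, against 0.360 and 0.184 at P36 (adjusted p = 1.17e-09 and 1.19e-09). Rabep1, rabaptin of the Rab5 complex, fell from 256 to 46.1 CPM in the jejunum and from 178 to 31.1 in the ileum. Osbpl1a, an effector of Rab7, fell, with log2 fold changes of -2.33 and -2.69. The motor Myo5c rose by 2.10 and 1.73. Among the synaptotagmin-like effectors of Rab27, Sytl4 rose by 2.27 and 1.75, Sytl2 in the jejunum by 2.01 and Sytl1 in the ileum by 3.02. These were picked by their adjusted p, and the other age changes of this family are not given here. At P6, 4 effector genes were higher in the jejunum (background 11.1%) and 11 were lower (background 14.8%). Mical1, an oxidoreductase that takes actin filaments apart, had 88.3 CPM in the jejunum against 9.61, with 3.20 ± 0.50, adjusted p = 0.000204, and Rilp, an effector of Rab7, and Golga5, a golgin, were higher in the jejunum with 1.53 and 0.68. Higher in the ileum were Appl1, an effector of Rab5, with -1.79 ± 0.17, adjusted p = 1.46e-06, Sytl2 with -1.66 and Sytl5 with -2.28.

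Called in none of the 5 comparisons were 12 of the 48 tested members, Rab1b, Rab3a, Rab5a, Rab6a, Rab10, Rab11b, Rab12, Rab18, Rab22a, Rab33b, Rab40c and Rab43. Rab10, a Rab of basolateral traffic, had 0.37 ± 0.17, adjusted p = 0.0752 between the ages in the jejunum, with P36 above P6 in every library. Rab6a, of transport within and from the Golgi, had 0.49 ± 0.19, adjusted p = 0.0741 between the regions at P6 and 0.80, adjusted p = 4.19e-05 without P6 ileum replicate 4. Rab18, linked to ER and lipid droplets, had its widest difference in these comparisons at -0.19 ± 0.13, adjusted p = 0.204. Rab33b, a Rab of the Golgi and of autophagy, had -0.45 ± 0.19, adjusted p = 0.0585 between the ages in the ileum, and Rab12, which sends receptors to lysosomes, had -0.51 ± 0.18, adjusted p = 0.0629 between the regions at P36. Rab43, a Golgi Rab, was above every ileum library in the P6 jejunum, with 0.60 ± 0.27, adjusted p = 0.118.

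The 11 members below the filter were Rab3b, Rab6b, Rab7b, Rab9b, Rab26, Rab33a, Rab38, Rab39, Rab39b, Rab40b and Rab44. Each stayed below 1 CPM in all libraries except Rab6b, which reached 2.46 CPM in P6 ileum replicate 2 and at most 0.43 in any other. In that library 5 markers of neurons and glia summed to 7.50 CPM, the highest of all libraries. Rab38, a relative of Rab32 in lysosome-related organelles, had 0.218, 0.268, 0.210 and 0.0958 CPM in P6 jejunum, 0.494, 0.474, 0.597 and 0.343 in P6 ileum and at most 0.0567 at P36. Rab40b had at most 0.862 CPM. No test was made of these genes.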

How the data were processed

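RNA of jejunal and ileal epithelium from 4 mice at P6 and 4 at P36 was sequenced as 16 stranded mRNA libraries. The authors trimmed reads with Trimmomatic 0.38, aligned them with STAR 2.5.3 to mm10 and deposited raw counts per gene from featureCounts of Subread 1.6.3 (per the submitters' processing notes), counted over exons on the reverse strand. From these deposited counts, genes were kept by filterByExpr over the 4 groups, scaled by TMM, and fitted with 4 group means over all 16 libraries by edgeR's quasi-likelihood test (edgeR 4.0.16, R 4.3.3). P-values were adjusted by Benjamini-Hochberg over 13429 genes, a call needed an adjusted p below 0.05, and SE was the log2 fold change divided by the square root of F. DESeq2 1.42.0, other scalings and filters, sex as a covariate, robust dispersion, fits of 8 libraries, the mouse as a block and leaving out each library were the alternatives. A correction for GC content, fitted within groups, was added after seeing the data. The fit was checked on simulated counts.

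The regions share mice, as the labels give 1 mouse number to both. Deviations from the group means correlated at 0.157 to 0.391 (P6) and 0.240 to 0.347 (P36) within a mouse, against -0.284 to 0.120 and -0.367 to 0.232 between mice. The mouse was left out of the main fit and entered as an alternative. No 2 replicates were copies. The members and gene lists were chosen with earlier results of these data known. Named were, per comparison and direction, up to 5 called members of largest change, the 5 most abundant per group, related pairs, Rab8a, Rab8b and Rab30, and up to 3 regulators per list by adjusted p. Some regulators that the rule names are not reported here. Further members are named, after their values were seen, to account for all of them.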

Additional observations from a re-analysis of the deposited data

Results flagged for a closer look

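In 16 of 132 groups of 4 libraries checked, for 33 genes, 1 library lay far from the other 3 by Dixon's criterion. Chance alone gives about 5% of groups, and 8 of the 16 were in P6 ileum replicate 4. In that library Rab4b measured 5.74 CPM (others 23.3 to 26.4), Rab25 23.2 (70.0 to 79.1), Rab5c 139 (394 to 438) and Rab1b 41.2 (145 to 164), all low. Rab31 measured 97.9 CPM (64.8 to 69.9), Rab7 441 (358 to 372), Rab5a 127 (58.3 to 65.4) and Rab32 22.2 (15.4 to 15.7), all high.

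In P36 ileum replicate 1, Rab8b stood at 43.7 CPM (others 24.3 to 25.2), Rab6a at 178 (147 to 152) and Rab22a at 65.5 (44.8 to 47.5). In P36 ileum replicate 3, Rab3d was at 84.0 CPM (57.3 to 61.7). In P36 jejunum replicate 1, Rab2a was at 205 CPM (178 to 183), and in P36 jejunum replicate 2, Rab1b at 141 (153 to 154). Among P6 jejunum libraries, Rab8b was at 156 CPM in replicate 1 (124 to 129.6) and Rab2b at 10.3 in replicate 3 (7.33 to 7.59).

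The difference between jejunum and ileum itself differed between the ages, by edgeR's interaction test, for Rab13 (1.10 on the log2 scale), Rab19 (1.31) and Rab37 (-1.73).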

How the results depend on the processing

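Of 1137 values from 63 pairs of a named member and a comparison under the alternatives, 1077 kept direction and call, 60 lost the call and 0 reversed; the cause of the lost calls was not tested. The counts below are given in the order P6 regions (jejunum, ileum), P36 regions (jejunum, ileum), age in the jejunum, age in the ileum and interaction (positive, negative), and only where they moved by over 1.5 times.

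For the members (main counts 9, 7, 2, 5, 3 and 20, 7 and 21, 2 and 1), library totals alone gave 4 and 19 for P6, 11 for the P36 ileum, 7 for P36 in the jejunum, and 1 and 4 for the interaction. DESeq2 gave 8 for the P36 ileum, 5 for P36 in the jejunum and 2 negative interactions, and a fit of only the 8 libraries compared gave 9 for P36 in the jejunum. The GC correction was chosen after seeing the data and fitted within groups. It gave 15 for the P6 jejunum, 4 and 8 at P36, 7 for P36 in the jejunum, and 9 and 6 for the interaction. With the mouse as a replicate block the P6 counts were 10 and 8, those of P36 2 and 5, and the interaction counts 3 and 2. The block with the GC correction gave 16 for the P6 jejunum, 5 and 9 at P36, and 13 and 5. Leaving out 1 library at a time gave 5 to 14 for the P6 jejunum, 1 to 3 for the P36 jejunum, 3 to 5 for P36 in the jejunum, 1 to 9 positive and 1 to 3 negative interactions. The highest positive count among these leave-one-out fits, 9, came without P6 ileum replicate 4. The summed level of the members in the P6 jejunum was 5072 CPM by library totals against 5646.

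For the genes of Rab regulation (main counts 14, 23, 19, 13, 28 and 47, 23 and 58, 4 and 9), library totals gave 5 and 51 for P6 and 2 and 15 for the interaction. DESeq2 gave 14 negative interactions. The 8 libraries compared gave 22 for the P36 ileum and 13 for P36 in the ileum. The GC correction gave 38 and 35 for P6, 31 and 24 for P36, and 15 and 17 for the interaction, and with the replicate block 42 and 36, 37 and 24, and 20 and 21. Leaving out 1 library gave 11 to 26 for the P6 jejunum, 7 to 13 for the P36 ileum and 3 to 10 positive interactions. The lowest P36 ileum counts, 7 and 8, came without P36 jejunum replicates 1 and 3.

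Genes of few counts, such as Rab34, Rab36 and Rab42 at P36, carry wide errors. In simulated counts of the P6 regional comparison (13302 genes), 45 of 100 changes of 1 log2 unit and 86 of 100 of 2 units were recovered.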
